A study of Mus musculus with 6 samples.

Results

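The TAL1 heptad is a set of 7 transcription factors, encoded by Tal1, Lyl1, Lmo2, Gata2, Runx1, Erg and Fli1. The genes were chosen by symbol, and all 7 were found among the 50763 gene symbols of the count table. RNA came from CD34- KSL cells of mouse bone marrow, a lineage-negative fraction positive for c-Kit and Sca-1 and negative for surface CD34, in which long-term blood stem cells are concentrated. Every mouse, controls included, had the genotype Tal1-tTA+/TRE-EGFR-tr+. In this system regulatory sequence of Tal1, a heptad member itself, drives the activator tTA, which switches on the TRE-linked transgene unless doxycycline blocks it. The EGFR-WT group (n = 3 libraries) drank water with 0.2 g/L doxycycline and, per the labels, made only the wild-type epidermal growth factor receptor. The EGFR-DN group (n = 3 libraries) had no doxycycline and also made a receptor without its cytoplasmic tyrosine kinase domain, a dominant-negative form. Doxycycline and the truncated receptor therefore cannot be told apart in any comparison. The labels give no age of the mice and do not tie the libraries of a group to separate animals, so each p-value reflects variation among these libraries that may be partly technical. They also do not say whether the transgene carries Tal1 sequence that would be counted as Tal1.

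As background, the heptad proteins meet on shared enhancers of blood stem and progenitor cells, and many of those enhancers control the heptad genes themselves. TAL1 and its close relative LYL1 are basic helix-loop-helix proteins that pair with E proteins on E-box sequences. LMO2 does not bind DNA and bridges the TAL1 or LYL1 pair to GATA2, a zinc finger protein of GATA sites. RUNX1 binds with its partner CBFB, and ERG and FLI1 are ETS factors that recognise a GGAA core. Loss of Tal1, Lmo2, Gata2 or Runx1 prevents or severely impairs the formation of blood stem cells in the mouse embryo.

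Promoter windows of 300 bases (250 before to 50 after a transcript start) from RefSeq on GRCm38.p6 were found for 5 of the 7 genes, 10 windows in all. Each window was searched on both strands for short motifs. The letters AGATAA stood for sites of the GATA2 family. The letters CAGNTG stood for the E-box of helix-loop-helix pairs. ETS factors were represented by CGGAAG. RUNX factors were represented by TGTGGT. The windows below are shown because Tal1 sequence drives the transgene activator and because Gata2 and Runx1 are the members whose values varied most between EGFR-DN libraries. They run 5′ to 3′ along the gene, and capitals mark the matches.
Tal1 (chr4:115056176-115056475, plus strand): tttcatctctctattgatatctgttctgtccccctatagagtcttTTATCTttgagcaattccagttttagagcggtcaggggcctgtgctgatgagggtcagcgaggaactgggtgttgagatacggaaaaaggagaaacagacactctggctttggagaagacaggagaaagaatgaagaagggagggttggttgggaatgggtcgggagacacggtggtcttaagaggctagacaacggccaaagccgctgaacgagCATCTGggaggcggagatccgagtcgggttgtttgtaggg
Gata2 (chr6:88198414-88198713, plus strand): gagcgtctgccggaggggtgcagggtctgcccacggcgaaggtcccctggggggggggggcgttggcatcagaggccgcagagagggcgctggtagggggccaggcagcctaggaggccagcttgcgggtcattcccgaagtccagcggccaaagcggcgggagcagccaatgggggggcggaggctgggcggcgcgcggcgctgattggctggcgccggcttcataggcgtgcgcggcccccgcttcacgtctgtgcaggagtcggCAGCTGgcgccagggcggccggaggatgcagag
Runx1 (chr16:92826025-92826324, minus strand): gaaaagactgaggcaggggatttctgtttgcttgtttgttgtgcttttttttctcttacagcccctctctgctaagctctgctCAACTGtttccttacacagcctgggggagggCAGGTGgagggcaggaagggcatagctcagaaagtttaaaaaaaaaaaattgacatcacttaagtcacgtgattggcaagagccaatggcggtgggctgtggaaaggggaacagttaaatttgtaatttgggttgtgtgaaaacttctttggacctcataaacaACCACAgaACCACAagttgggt
The Tal1 window shown held 1 GATA and 1 E-box match, and the Gata2 window shown 1 E-box match. The Runx1 window shown held 2 E-box and 2 RUNX matches, the latter just behind the start. Each of these genes had 2 windows, and the one not shown held 0 matches to any of the motifs. Over the 10 windows, 5 held an E-box match, 2 a GATA match, 1 an ETS match and 1 a RUNX match. Among all 32851 windows the E-box letters occurred in 51.4%, the GATA letters in 11.2%, the ETS letters in 16.9% and the RUNX letters in 16.8%. These matches describe the sequence only, since binding was not measured.

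Total counts ranged from 24073204 to 36032504 per library. Before TMM scaling between libraries, 3 counts correspond to 0.0833 to 0.125 CPM (counts scaled to library size). All other CPM values here are with TMM scaling. As the check of the labels, Egfr was counted 6 times in every EGFR-WT library (0.160 to 0.237 CPM, near the level of 3 counts), and 4022, 4758 and 991 times in EGFR-DN replicates 1 to 3. Replicate 3 of EGFR-DN stood apart, with 25.4% of its counts in 8 rRNA-like genes against 4.71% to 6.15% in the other libraries, and 0.842% in ribosomal protein genes against 2.33% to 2.52%. Each heptad result is therefore given with and without that library. Transcripts of the sorted gate were present, with Kit at 787 ± 17.5 CPM and the Sca-1 gene Ly6a at 65.0 ± 13.8 CPM in EGFR-WT (SD, n = 3). Cd34 transcript was at 318, 410.3 and 404 CPM in EGFR-WT replicates 1 to 3 and at 569, 534 and 378 CPM in EGFR-DN replicates 1 to 3, although the sort removed cells with surface CD34. The log2 fold change of Cd34 was 0.39 (SE 0.23, edgeR adjusted p = 0.690), and 0.54 (SE 0.12, adjusted p = 0.118) without EGFR-DN replicate 3, where both remaining libraries lay above every EGFR-WT library. Its part in the heptad values was not tested.

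In EGFR-WT libraries the heptad genes were among the more abundant transcripts. Levels are compared between genes per length, as CPM per kb of merged exons in GENCODE vM21. Lmo2 was the most abundant at 316 ± 27.0 CPM per kb (SD, n = 3), above 98.9% of the 16713 tested genes with a known length. Fli1 followed at 73.5 ± 5.80, Gata2 at 47.3 ± 5.45, Erg at 38.3 ± 5.97 and Lyl1 at 37.9 ± 1.19 CPM per kb. Tal1 was at 19.7 ± 0.760 and Runx1 at 11.6 ± 0.892 CPM per kb, above 82.1% and 71.4% of genes. Highest and lowest thus differed by 27.2-fold. The ranges of the 3 EGFR-WT libraries overlapped between Gata2 and Erg and between Erg and Lyl1, and were separate between the other neighbours in the order. With the length of the longest transcript in place of merged exons, Runx1 (23.9 ± 1.83) came before Tal1 (20.5 ± 0.790) and their ranges overlapped, as did those of Fli1 and Gata2, so the last places are not settled. Leaving out EGFR-WT replicate 1 exchanged Erg and Lyl1.

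**Figure D1:**
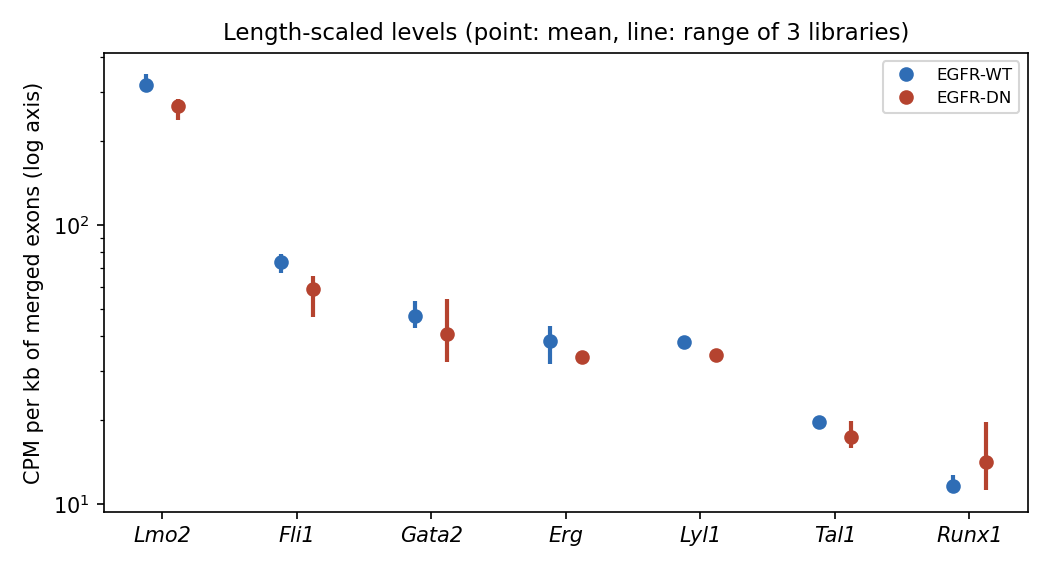
Length-scaled level of each heptad gene on a log axis, in CPM per kb of merged exons, with the mean as a point and the range of 3 libraries as a line for EGFR-WT and EGFR-DN. Lmo2 stood well above the rest in both groups, and Runx1, with an EGFR-WT mean of 11.6, was lowest.

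In EGFR-DN the length-scaled order was the same except that Lyl1 (34.3 ± 0.643 CPM per kb) came before Erg (33.6 ± 0.462), with overlapping ranges. The ranges of Tal1 and Runx1, and of Fli1 and Gata2, also overlapped there. Within EGFR-WT the coefficient of variation of CPM over libraries lay between 3.15% (Lyl1) and 15.6% (Erg). Within EGFR-DN it was 29.7% for Gata2 and 34.4% for Runx1 but 1.38% for Erg and 1.88% for Lyl1.

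The comparison of EGFR-DN with EGFR-WT asks whether heptad transcripts differ when the truncated receptor is made. By the quasi-likelihood test of edgeR with Benjamini-Hochberg adjustment over all 19313 genes tested, 0 of the 7 members passed the threshold of 0.05, where 0.00518% of all genes did (1 gene, Egfr). At an unadjusted p under 0.05 the count was also 0 of 7, where 6.69% of all genes lay. DESeq2 on the same libraries, which called 0.775% of genes, called 0 members as well. Limma-voom called 0 of all 19313 genes, so that its count of 0 members tells nothing about the heptad. All members were far above the low-count filter, with at least 1198 estimated counts in every library. The log2 fold change (EGFR-DN minus EGFR-WT) was below 0 for 6 members and above 0 for Runx1, with a median of −0.19, beside a median of 0.01 and 49.0% below 0 over all genes. In 3 members, Lyl1, Lmo2 and Fli1, every EGFR-DN library lay below every EGFR-WT library, a pattern that 8.72% of all genes showed. The reverse pattern occurred in 0 members and in 9.21% of all genes. Summed over the 7 genes, CPM was 1390.4, 1409 and 1469 in EGFR-DN replicates 1 to 3 against 1774, 1556 and 1541 in EGFR-WT replicates 1 to 3. The groups did not overlap in this sum, of which Lmo2 alone made up a mean of 42.2% in EGFR-WT and 40.6% in EGFR-DN. Taken singly, Tal1, Gata2, Runx1 and Erg overlapped between the groups. How often the sum of 7 other genes would not overlap was not tested. In bulk RNA, fewer cells that express a gene and less RNA per cell cannot be told apart.

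**Figure D2:**
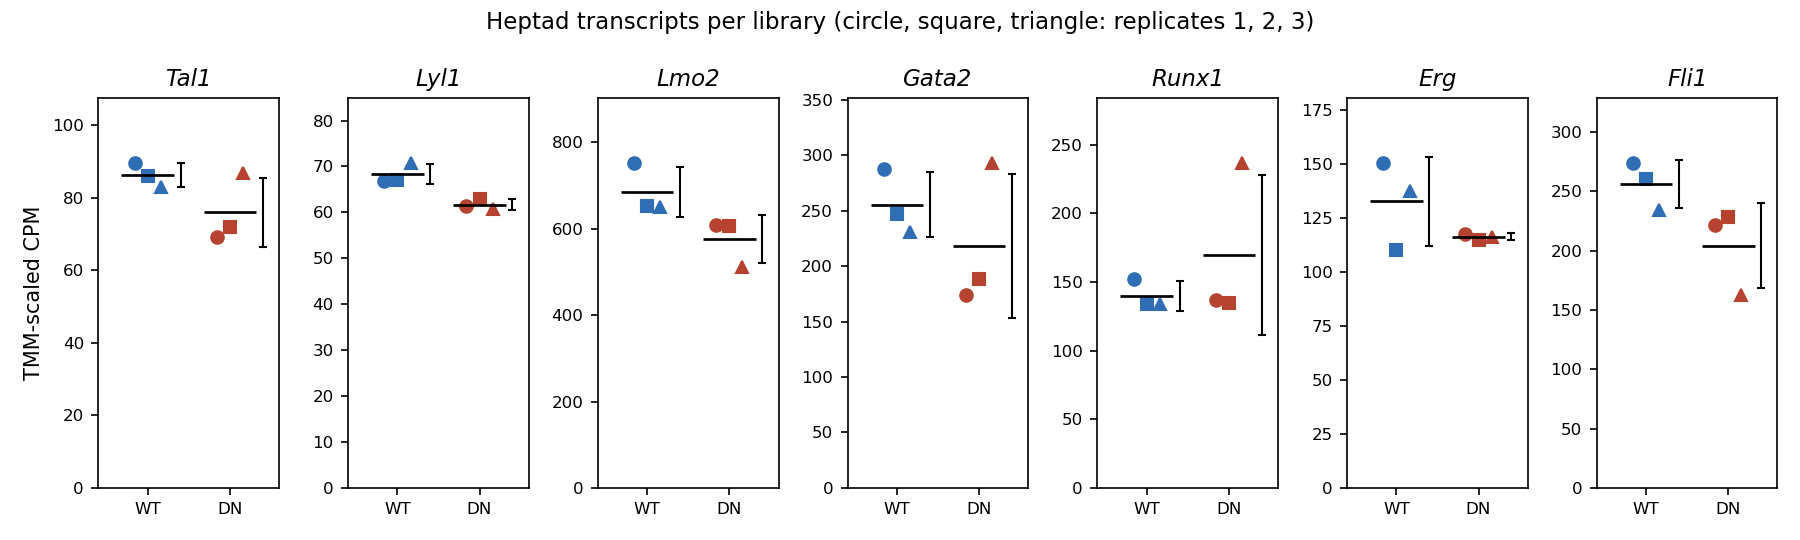
TMM-scaled CPM of each heptad gene in every library, by group, with symbols for replicate numbers, a bar at the mean and a whisker of 1 SD (n = 3 each), on axes that start at 0. Lyl1, Lmo2 and Fli1 do not overlap between groups, and EGFR-DN replicate 3 is the high triangle for Gata2 (293 CPM) and Runx1 (237 CPM).

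Neither helix-loop-helix gene passed the edgeR threshold. Tal1 was at 89.6, 86.1 and 83.0 CPM in EGFR-WT replicates 1 to 3 and at 69.2, 71.9 and 86.9 CPM in EGFR-DN replicates 1 to 3. The first and second EGFR-DN libraries lay below all EGFR-WT libraries, and the rRNA-rich replicate 3 lay among them. The log2 fold change of Tal1 was −0.18 (SE 0.15, 95% interval −0.53 to 0.17, edgeR adjusted p = 0.707). Without EGFR-DN replicate 3 it was −0.29 (SE 0.06, 95% interval −0.44 to −0.14, edgeR unadjusted p = 0.00222, adjusted p = 0.124), which missed the threshold in edgeR, whereas DESeq2 without that library called Tal1 lower (adjusted p = 0.00879). The deposited counts of Tal1, Lyl1 and Runx1 carry decimals, which whole-read counting does not give, whereas those of Lmo2, Gata2, Erg and Fli1 are whole numbers in every library. In GENCODE vM21, Tal1 shares no exon bases with another gene.

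Lyl1 varied least of the members within EGFR-WT, though Erg varied less within EGFR-DN. Lyl1 was at 66.9, 67.2 and 70.8 CPM in EGFR-WT replicates 1 to 3 and at 61.3, 63.0 and 60.8 CPM in EGFR-DN replicates 1 to 3. All EGFR-DN libraries were lower, the rRNA-rich one included, but the highest of them (63.0) was close to the lowest EGFR-WT library (66.9). Its log2 fold change was −0.15 (SE 0.12, 95% interval −0.44 to 0.15, edgeR adjusted p = 0.711). It was −0.14 (SE 0.06) without EGFR-DN replicate 3. Lyl1 shares 4 exon bases with Nfix on the opposite strand, 0.222% of its exons. The within-library ratio of Tal1 to Lyl1 CPM, which does not depend on scaling, was 1.34, 1.28 and 1.17 in EGFR-WT replicates 1 to 3 and 1.13, 1.14 and 1.43 in EGFR-DN replicates 1 to 3. These ratios overlapped, with EGFR-DN replicate 3 highest.

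Lmo2, the bridging subunit, was at 752, 652 and 650.4 CPM in EGFR-WT replicates 1 to 3 and at 609.8, 607 and 512 CPM in EGFR-DN replicates 1 to 3. Every EGFR-DN library was lower, and the rRNA-rich replicate 3 was lowest. For Lmo2 the log2 fold change was −0.25 (SE 0.19, 95% interval −0.69 to 0.20, edgeR adjusted p = 0.700). Without EGFR-DN replicate 3 it was −0.18 (SE 0.08, adjusted p = 0.417). Lmo2 made up 42.4%, 41.9% and 42.2% of the summed heptad CPM in EGFR-WT replicates 1 to 3. In EGFR-DN replicates 1 and 2 its share was 43.9% and 43.1%, and in EGFR-DN replicate 3 it was 34.9%.

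Gata2 gave the largest difference once EGFR-DN replicate 3 was left out. Gata2 was at 288, 247 and 231 CPM in EGFR-WT replicates 1 to 3 and at 174, 189 and 293 CPM in EGFR-DN replicates 1 to 3. Replicates 1 and 2 of EGFR-DN were below every EGFR-WT library, and replicate 3 was above every one of them. Over all libraries the log2 fold change was −0.22 (SE 0.24, 95% interval −0.79 to 0.35, edgeR adjusted p = 0.744). Without EGFR-DN replicate 3 it was −0.50 (SE 0.10, 95% interval −0.74 to −0.26, edgeR unadjusted p = 0.00167, adjusted p = 0.111). At an unadjusted p under 0.05 and without that library, Tal1 and Gata2 were lower, 2 of 7 members, where 13.6% of genes had such a p and 6.99% were lower with it. After adjustment edgeR called 0 of 7 members without it, where it called 0.286% of genes. DESeq2 without that library placed both past the threshold (adjusted p = 0.00879 for Tal1 and 0.000253 for Gata2), where it called 5.51% of genes. Without EGFR-DN replicate 1 or 2 the log2 fold change of Gata2 was −0.09 or −0.14, and without EGFR-WT replicate 1 it was −0.14.

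GATA2 is also a factor of mast cells and basophils, so their markers are given beside it. The 9 genes of that list summed to 60.8, 60.4 and 94.3 CPM in EGFR-DN replicates 1 to 3 and to 69.7 to 118 CPM in EGFR-WT. Of 7 tested, 0 passed the edgeR threshold, where 0.00518% of all genes did. A log2 fold change below 0 was found in 5 of the 7, where 49.0% of all genes had one. The list median was −0.73, or −0.94 without EGFR-DN replicate 3. At an unadjusted p under 0.05, 2 were higher and 1 lower, where 4.30% and 2.40% of all genes were. Cpa3, a mast cell carboxypeptidase, was at 42.6 ± 10.0 CPM in EGFR-DN against 24.0 ± 6.74 (SD, n = 3), and Hdc, which makes histamine, at 4.42 ± 1.19 against 2.36 ± 0.174. Mcpt8, a basophil protease, was at 6.62 ± 1.16 CPM against 16.8 ± 3.15. DESeq2 called it lower (adjusted p = 0.000239), where it called 0.775% of all genes. Prss34, another basophil protease and named after its values were seen, was at 4.99, 4.08 and 23.3 CPM in EGFR-DN replicates 1 to 3 and at 30.4, 55.7 and 16.7 CPM in EGFR-WT replicates 1 to 3. Replicate 3 of EGFR-DN was the high one of its group, as for Gata2, and lay within the EGFR-WT range. The list did not share this pattern throughout. Replicate 3 was also the highest EGFR-DN library for Cpa3, Ms4a2, Hdc and Gzmb. It was the lowest for Mcpt8 (7.29, 7.29 and 5.27 CPM in EGFR-DN replicates 1 to 3) and Fcer1a (6.825, 5.33 and 2.94 CPM). The log2 fold change of Prss34 was −1.68 (SE 0.75, edgeR adjusted p = 0.690), and −2.93 (SE 0.49, adjusted p = 0.0708) without that library. The mast cell proteases Cma1 and Tpsb2 were at group means of at most 0.131 CPM. The 10 stem cell genes of the gate list summed to 1290, 1538 and 3670 CPM in EGFR-DN replicates 1 to 3 against 1705 to 2027 in EGFR-WT, with a median log2 fold change of −0.21, or −0.66 without replicate 3. Of these, 0 passed the edgeR threshold, where 0.00518% of all genes did. At an unadjusted p under 0.05, 2 of the 10 were lower, where 2.40% of all genes were. These were Procr (−1.25, SE 0.33) and Ctnnal1 (−0.71, SE 0.18). DESeq2 called Procr (adjusted p = 0.0495), where it called 0.775% of all genes. The part of the mast cell, basophil and stem cell genes in the Gata2 values was not tested.

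Runx1 had the only log2 fold change above 0 among the members, and it rested on a single library. Runx1 was at 152, 134 and 134 CPM in EGFR-WT replicates 1 to 3 and at 137, 135 and 237 CPM in EGFR-DN replicates 1 to 3. The first and second EGFR-DN libraries lay within the EGFR-WT range, and replicate 3 lay far above it. Over all libraries its log2 fold change was 0.28 (SE 0.25, 95% interval −0.32 to 0.87, edgeR adjusted p = 0.720). Without EGFR-DN replicate 3 it turned to −0.047 (SE 0.08, 95% interval −0.23 to 0.13, adjusted p = 0.847). Runx1 shares 106 exon bases with the antisense gene Gm26626, 0.881% of its merged exons, and that gene averaged 0.607 CPM in EGFR-WT and 0.793 CPM in EGFR-DN.

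The ratio of Runx1 to Gata2 CPM, chosen after the values were seen and unaffected by scaling, was 0.785, 0.715 and 0.807 in EGFR-DN replicates 1 to 3 and 0.529, 0.541 and 0.579 in EGFR-WT replicates 1 to 3. Every EGFR-DN library was higher, the rRNA-rich replicate 3 included. Among all other genes tested, 23.0% had a ratio to Gata2 that was higher in every EGFR-DN library.

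The ETS genes Erg and Fli1 differed in how far EGFR-DN replicate 3 departed. Erg was at 151, 110.1 and 138 CPM in EGFR-WT replicates 1 to 3 and at 118, 114.7 and 117 CPM in EGFR-DN replicates 1 to 3. The EGFR-DN libraries lay close together inside the EGFR-WT range. The log2 fold change of Erg was −0.19 (SE 0.17, 95% interval −0.58 to 0.20, edgeR adjusted p = 0.715), and −0.20 (SE 0.12) without EGFR-DN replicate 3. It moved to −0.31 without EGFR-WT replicate 2 and to −0.10 without EGFR-WT replicate 1.

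Fli1 had the lowest log2 fold change of the members over all libraries. It was at 274, 260.4 and 234 CPM in EGFR-WT replicates 1 to 3 and at 222, 229 and 163 CPM in EGFR-DN replicates 1 to 3. All EGFR-DN libraries were lower, with replicate 3 furthest down. The log2 fold change was −0.33 (SE 0.19, 95% interval −0.78 to 0.13, edgeR adjusted p = 0.690). Without EGFR-DN replicate 3 it was −0.19 (SE 0.08, adjusted p = 0.368). The ratio of Erg to Fli1 CPM was 0.5497, 0.423 and 0.589 in EGFR-WT replicates 1 to 3 against 0.532, 0.501 and 0.715 in EGFR-DN replicates 1 to 3. These ratios overlapped between the groups. ERG and FLI1 are also endothelial factors. The 9 endothelial markers summed to 19.2 to 36.9 CPM in EGFR-DN and 27.8 to 41.2 CPM in EGFR-WT. The most abundant, Emcn, was at 12.5 ± 7.06 against 16.3 ± 1.40 CPM, and the cadherin gene Cdh5 was at group means of at most 0.246 CPM. Of 6 tested, 0 passed the edgeR threshold, where 0.00518% of all genes did. At an unadjusted p under 0.05, 1 was lower, Sox18 (−0.96, SE 0.37), where 2.40% of all genes were.

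**Figure D3:**
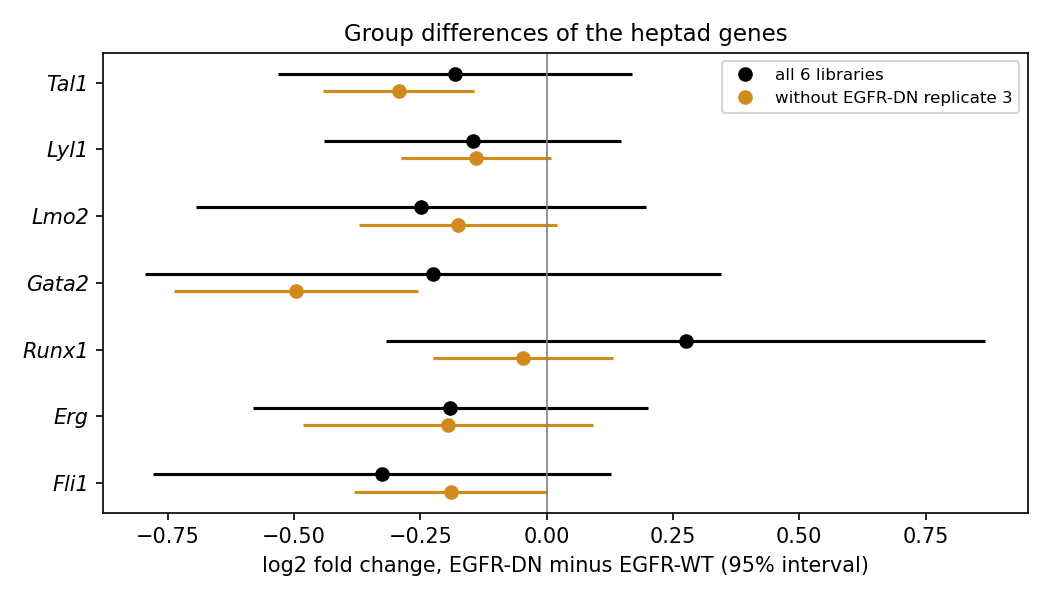
Log2 fold change of each heptad gene (EGFR-DN minus EGFR-WT) with its 95% interval from the edgeR test, for all 6 libraries and without EGFR-DN replicate 3. All intervals over 6 libraries include 0, and without that library those of Tal1 and Gata2 do not, before adjustment over all genes.

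The departure of EGFR-DN replicate 3 ran in different directions among the members. Set against the mean log2 level of EGFR-DN replicates 1 and 2, it was higher by 0.80 for Runx1, 0.69 for Gata2 and 0.30 for Tal1. For Fli1 it was −0.47 and for Lmo2 −0.25, while Lyl1 (−0.03) and Erg (0.0030) hardly departed. Departures of this size were common in that library, since the median size over 12695 genes with a mean of at least 4 CPM was 0.594. The Runx1 departure was larger than those of 65.7% of these genes and the Gata2 departure larger than 57.9%. With replicate 3 left out, EGFR-DN lay below every EGFR-WT library in 5 members (Tal1, Lyl1, Lmo2, Gata2 and Fli1) and above in 0, beside 15.9% and 16.3% of all genes.

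**Figure D4:**
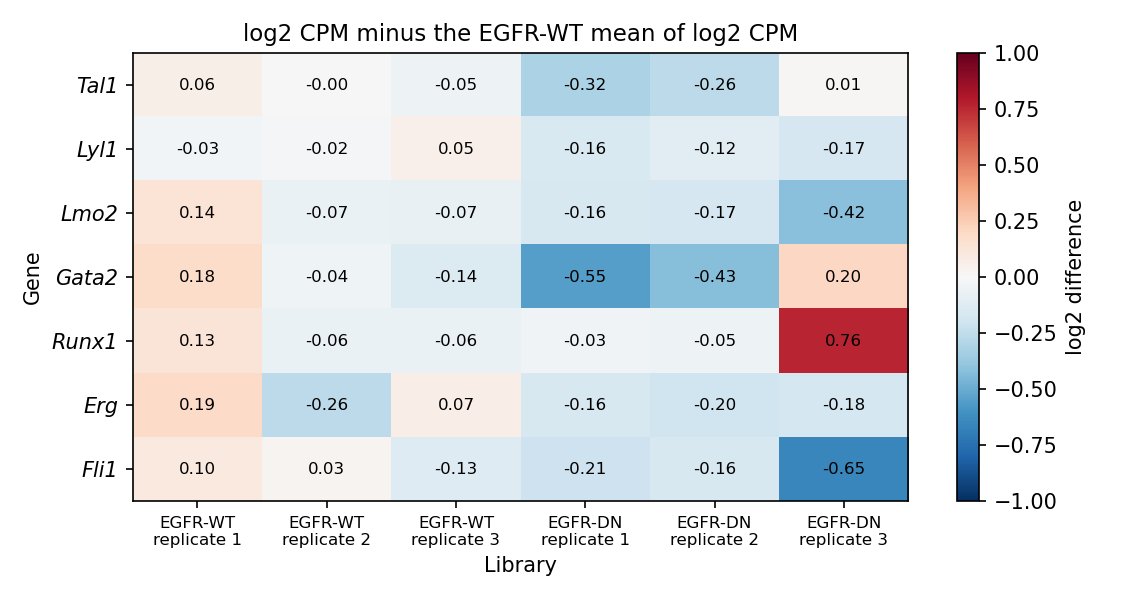
Log2 CPM of each heptad gene in each library minus its mean over the EGFR-WT libraries. EGFR-DN replicates 1 and 2 are below 0 for every gene, down to −0.55 for Gata2, whereas EGFR-DN replicate 3 runs from −0.65 for Fli1 to 0.76 for Runx1.

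The members did not share a single profile. Profiles were compared as the root mean square difference of log2(CPM + 0.5), centred on each gene's mean over the 6 libraries, against 10833 other named genes with a mean of at least 4 CPM. The most alike members were Lmo2 and Fli1 (0.0984), and Fli1 was number 420 among the genes nearest to Lmo2. By rank the closest was Tal1, number 166 among the genes nearest to Gata2. Runx1 and Fli1 were the least alike (0.509). The genes nearest to Tal1 were Pdf, Pld3 and Tpst2 (0.0263 to 0.0392), and those nearest to Lyl1 were Tmco4, Ccnh and Fbxo28 (0.0212 to 0.0310). Lmo2 was nearest to Cryzl2, Aldh2 and Crls1 (0.0339 to 0.0407), and Gata2 to Fchsd1, Pfkp and Map7d3 (0.0377 to 0.0661). Nearest to Runx1 were Gcfc2, Slc25a36 and Cyria (0.0270 to 0.0292), to Erg were Epb41l4b, Marchf6 and Cfl2 (0.0398 to 0.0592), and to Fli1 were Hdgfl3, Klhl23 and Polr2c (0.0150 to 0.0332). With 6 libraries and this many genes, such close profiles describe these libraries only.

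Genes of the proteins that join the heptad on DNA did not pass either. The list held E proteins, the LDB1 and SSBP bridging proteins, CBFB and corepressors or coactivators, and 19 of 20 were tested. By edgeR 0 passed, and by DESeq2 0 passed, where 0.00518% and 0.775% of all genes did. At an unadjusted p under 0.05 there was 1 of the 19, where 6.69% of all genes lay. This was Runx1t1, a corepressor gene of the ETO family, at 6.98 ± 3.06 CPM in EGFR-DN against 15.0 ± 5.75 (log2 fold change −1.11, SE 0.39). The list median was 0.18 with 13 genes above 0, and −0.02 without EGFR-DN replicate 3. Ldb1, which ties LMO2 complexes together, was at 143 ± 24.1 against 137 ± 4.10 CPM, and Cbfb, the RUNX1 partner, at 197 ± 17.2 against 220.2 ± 12.6 CPM. The E protein gene Tcf12 (0.68, SE 0.42) and Zfpm1, which encodes a GATA cofactor (0.69, SE 0.50), were at −0.02 and −0.20 without replicate 3. These last 4 genes were chosen for their known roles.

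**Figure D5:**
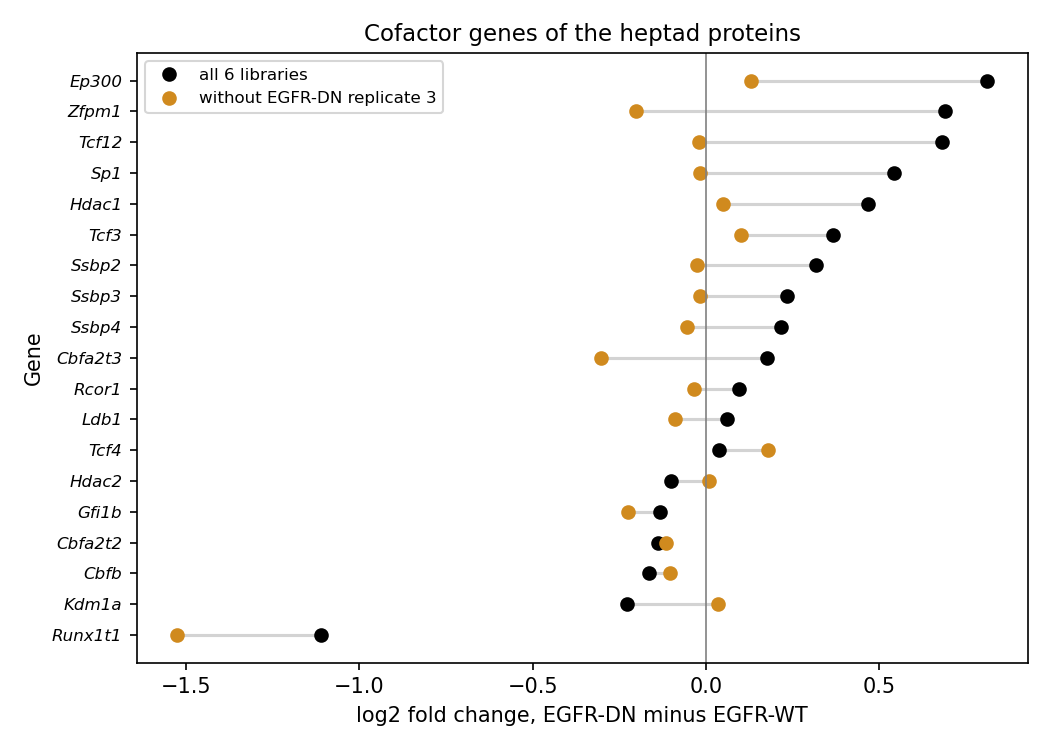
Log2 fold change (EGFR-DN minus EGFR-WT) of the 19 tested cofactor genes, over all 6 libraries and without EGFR-DN replicate 3, joined by a grey line. Most genes above 0 move towards 0 without that library, as Tcf12 does from 0.68 to −0.02, while Runx1t1 stays lowest.

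Of 20 other members of the heptad gene families, 12 were tested. By edgeR or DESeq2 0 passed, where 0.00518% and 0.775% of all genes did. At an unadjusted p under 0.05 there were 0 of the 12, where 6.69% of all genes lay. Gata1, the erythroid and megakaryocyte GATA factor, was at 45.7 ± 13.4 CPM in EGFR-DN against 32.7 ± 6.46, and Gata3, of the T cell lineage, at 33.8 ± 2.52 against 42.2 ± 4.69. Runx3 was at 132 ± 8.33 against 103 ± 19.8 CPM. Tal2, the other TAL gene, was at no more than 0.0309 CPM in either group mean. These 4 do not cover every near relative of the members. Runx2 was at 94.7 ± 52.4 CPM in EGFR-DN against 57.3 ± 6.54 (log2 fold change 0.72, SE 0.36). Without EGFR-DN replicate 3 its log2 fold change was 0.17 (SE 0.10). Among 18 genes with blood enhancers known to bind several heptad proteins, 17 were tested. By edgeR or DESeq2 0 passed, beside the same 0.00518% and 0.775% of all genes. The median log2 fold change was 0.18 (−0.10 without EGFR-DN replicate 3). Spi1, the gene of the myeloid factor PU.1, was at 92.2 ± 24.4 CPM against 55.4 ± 4.04 (0.73, SE 0.21), and Pecam1, an adhesion protein, at 94.9 ± 42.0 against 51.9 ± 4.37 (0.87, SE 0.30). These 2 were higher at an unadjusted p under 0.05, where 4.30% of genes were. Their groups did not overlap, with EGFR-DN higher, as in 9.21% of all genes. Without EGFR-DN replicate 3 their log2 fold changes were smaller, 0.49 (SE 0.08) for Spi1 and 0.44 (SE 0.08) for Pecam1.

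Several markers of other cells were higher in EGFR-DN before adjustment over all genes. The 9 neutrophil granule genes summed to 896 to 1434 CPM in EGFR-DN and 403 to 584 CPM in EGFR-WT, and 5 of 8 tested were higher at an unadjusted p under 0.05, where 4.30% of all genes were. Mpo, the most abundant, was at 854 ± 353 against 340 ± 84.5 CPM (DESeq2 adjusted p = 0.0250). Lineage gate genes were led by Itgam, a myeloid integrin, at 58.5 ± 10.0 against 24.4 ± 4.62 CPM, and 5 of 7 tested were higher at that level, beside the same 4.30%. B lineage genes summed to 50.7 to 70.1 against 36.4 to 47.6 CPM, with 3 of 6 tested higher at that level, again beside 4.30%, among them Blnk (1.40, SE 0.37). Erythroid genes summed to 314 to 558 against 222 to 357 CPM, with a median log2 fold change of 0.32 over 8 tested, and the most abundant, Car1, was at 338 ± 107 against 247 ± 73.0 CPM. Megakaryocyte genes summed to 612 to 920.3 against 541 to 877 CPM, with 0 of 9 under that p. By edgeR 0 genes of these lists passed with every library kept, where 0.00518% of all genes did. Without EGFR-DN replicate 3, where edgeR called 0.286% of genes, it called 3 of them higher. These were Itgam (1.39, adjusted p = 0.0388), the neutrophil protease gene Ctsg (1.46, adjusted p = 0.0388) and the granule peptide gene Camp (adjusted p = 0.0455), which was under the low-count filter with all libraries and had 44 and 28 counts in EGFR-DN replicates 1 and 2 against 1 or 2 in every other library. With every library kept, DESeq2 called Mpo, Itgam (adjusted p = 0.000239) and Blnk (adjusted p = 0.0482), where it called 0.775% of all genes. Their part in the heptad values was not tested.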

How the data were processed

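Estimated counts for each gene symbol, unscaled between libraries, are what the authors deposited. The 6 libraries were made from 10 ng of RNA with SMART-Seq v4 and Nextera XT and read as 75-base single reads, per the labels' protocols. DRAGEN, DESeq2 1.40.2, R 4.3.1 and mm39 are named by the submitters' processing notes, with no role for each. The counting annotation and strandedness were not given in the sources used here. Nextera XT does not mark strand. Of the values, 79.4% are whole, and 0 columns of other samples were present.

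Counts were rounded to whole numbers, as the design foresaw for estimated counts, filtered with filterByExpr (19313 genes left), scaled by TMM (a trimmed mean of log ratios between libraries) and tested two-sided with edgeR 4.0.16 (quasi-likelihood, R 4.3.3), adjusting by Benjamini-Hochberg over all genes. The SE is |log2 fold change| over the root of the F statistic. No pair of libraries within a group was a duplicate (smallest chi-square per degree of freedom 14.9). Lengths came from GENCODE vM21 (GRCm38), which held 86.5% of the genes tested. DESeq2 1.42.0 and limma 3.58.1 were alternatives, and the scripts were tested on simulated data. Floors of 3 counts cover counting error only, since PCR copies are not independent molecules.

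The members and lists were chosen with earlier results of these data known. Genes were named by rule: all members, the 3 nearest profiles of each, up to 4 genes per list with an unadjusted p under 0.05, the most abundant gene of each cell type list, and Egfr. Not every gene the rule allows is described, and a few other list genes are given for their known role. The list gene Vpreb1 was not found by its symbol.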

Additional observations from a re-analysis of the deposited data

How the results depend on the processing

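Under all 18 alternatives Tal1, Lyl1, Lmo2, Gata2, Erg and Fli1 kept a log2 fold change below 0. The edgeR fits and limma-voom, with or without library weights, called 0 members, as did DESeq2 on all libraries. DESeq2 without EGFR-DN replicate 3 called 2, Tal1 (−0.29) and Gata2 (−0.49). Runx1 changed sign without EGFR-DN replicate 3, to −0.047 by edgeR and −0.045 by that DESeq2 fit, and to −0.011 by limma-voom with library quality weights. Its values with each library left out ran from −0.047 to 0.40. Genes past the threshold numbered 1 in the main test, 135 by DESeq2, 0 by limma-voom, 188 with library quality weights and 884 by DESeq2 without EGFR-DN replicate 3. They ran from 0 (without any 1 of the EGFR-WT libraries) to 57 (without EGFR-DN replicate 3) when each library was left out. Scaling by library size alone moved the median of all genes from 0.01 to −0.10, and Runx1 to 0.12 and Fli1 to −0.42 with it.

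Replicate numbers are shared by the groups. Deviations of same-numbered libraries from their group means correlated at −0.0192, 0.055 and 0.064. Replicate 3 of EGFR-DN was far from the others of its group (chi-square per degree of freedom 411 and 434, against 41.5 between replicates 1 and 2). It weighs on the deviations of that whole group, so these correlations cannot exclude a pairing. With the replicate number as a block, 1 gene and 0 members passed. In the length-scaled order 2 members changed place with the longest transcript as length, and 0 to 2 when each EGFR-WT library was left out. With 3 libraries a group, the 95% intervals of the members reached up to 0.87 on the log2 scale, so edgeR on all 6 libraries could not resolve differences within them. Exact permutation of 3 against 3 could not go below p = 0.1.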
